A study of Schizocardium californicum with 12 samples.

Results

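Unirradiated larvae and unirradiated juveniles of the acorn worm Schizocardium californicum were compared to describe which genes and functions marked each side of metamorphosis. The members were the 3 control larva libraries and the 3 control juvenile libraries, all given 0 Gy, which are 6 of the 12 libraries of the series. The other 6 libraries came from larvae given 120 Gy and juveniles given 200 Gy of X-rays, sampled 3 days after treatment, and entered the same fit, where they also gave a second view of the stage difference. Each library was made from total RNA of 5 whole animals pooled, all animals were kept in filtered seawater, and the study describes the 3 libraries of a group as independent biological replicates. Larvae had been raised in jars on the algae Dunaliella tertiolecta and Rhodomonas lens, and juveniles had been moved to bowls with sand. Stage, diet and substrate therefore cannot be told apart. The labels call the animals larvae and juveniles without an age or a larval sub-stage.

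Acorn worms are marine deuterostomes related to sea urchins and, more distantly, to vertebrates. Their feeding larva, the tornaria, swims in the plankton and catches algae with bands of cilia, whereas the juvenile is a burrowing worm with a muscular proboscis, a collar and a trunk with gill slits, covered in mucus and feeding from sediment. In S. californicum metamorphosis links these forms, and the trunk, the region in which Hox genes are mainly expressed in acorn worms, grows late in larval life.

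The control larva libraries held 7675726, 12036921 and 13533612 reads on genes, and the control juvenile libraries 10544816, 9384973 and 20313949. A normalized count is a gene's read count divided by its library's effective size and scaled to the mean effective size of all libraries. The first principal component of the 6 libraries carried 90.8% of the variance and separated the stages, with larvae at −170 to −160 and juveniles at 164 to 165. Libraries of one stage correlated at 0.968 to 0.981 across genes and libraries of different stages at 0.612 to 0.638, on the log2 scale. No library stood apart from its stage and none was a copy of another. Intron reads made up 4.67% to 6.29% of reads in larvae and 4.86% to 5.03% in juveniles. Between 22080 and 22967 genes had at least 1 read in a larval library, and between 23373 and 24339 in a juvenile library.

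Most of the transcriptome differed between the stages. Of 20780 genes tested, 6821 were higher in juveniles, which is 32.8% of those tested, and 6191 were higher in larvae, which is 29.8%. Calls rest on the quasi-likelihood test of edgeR, adjusted by Benjamini and Hochberg's method over all genes tested, at a threshold of 0.05 and with n = 3 libraries in each stage. With a difference of at least 2-fold as a further condition, 5238 genes were higher in juveniles (25.2%) and 3815 were higher in larvae (18.4%). At 16-fold or more the numbers were 1546 and 1027, and at 256-fold or more 263 and 304. The median log2 fold change of all genes tested, taken as juveniles minus larvae throughout, was 0.026, and the median absolute log2 fold change was 0.859. All 3 juvenile libraries lay above all 3 larval libraries in 7354 genes (35.4%), and all 3 larval libraries lay above in 6690 (32.2%).

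**Figure D1:**
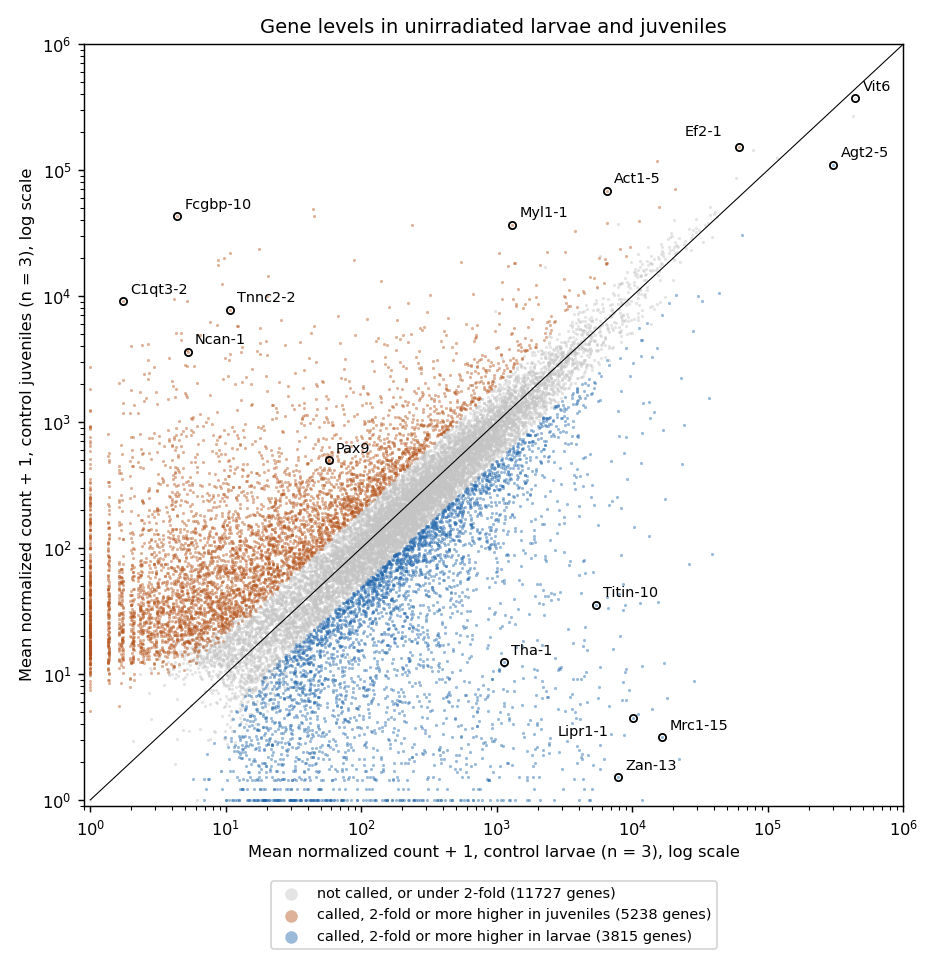
Each point is 1 of the 20780 genes tested, with its mean normalized count plus 1 in the 3 control larva libraries on the horizontal axis and in the 3 control juvenile libraries on the vertical axis, both on log scales, and the diagonal marks equal levels. The 5238 genes called at least 2-fold higher in juveniles and the 3815 called at least 2-fold higher in larvae spread far from the diagonal, and circles mark genes described in the text, such as Fcgbp-10 at the upper left and Zan-13 at the lower right.

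The same stage contrast was then read in the irradiated libraries, which do not enter the means of the control contrast but share its filter, scaling and estimate of the spread. A fit of the 6 control libraries alone called 6206 genes higher in juveniles and 5662 higher in larvae. Between irradiated juveniles and irradiated larvae, in the fit of all 12 libraries, 6516 genes (31.4%) were higher in juveniles and 5943 (28.6%) in larvae. Of the 13012 genes called in controls, 10117 (77.8%) were called in the same direction in irradiated animals and 78 in the opposite direction. Of the 9053 called with at least a 2-fold difference, 7908 (87.4%) were called in the same direction and 11 in the opposite one. A test of the difference between the irradiated and the control stage contrasts called 722 genes (3.47%) in either direction.

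Genes at least 2-fold higher in juveniles supplied 24.6% to 27.3% of the reads of a juvenile library and 4.97% to 5.12% of those of a larval library. Genes at least 2-fold higher in larvae supplied 24.3% to 25.1% of larval reads and 4.44% to 5.06% of juvenile reads. These shares describe genes chosen by this contrast and carry no test. The reads were concentrated in few genes in both stages, with 50% of a library's normalized counts coming from 541 to 661 genes in larvae and 452 to 506 in juveniles.

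The most abundant transcripts were largely shared. Levels between genes are compared in RPKM, read counts scaled by exon length and by library size, as the authors' software gave them. Ferritin (Fris-2), an iron-storage protein, averaged 3317 RPKM in larvae and 6000.4 in juveniles. Its normalized counts were 81623, 71417 and 81017 in larvae and 152753, 138065 and 142281 in juveniles, with every juvenile library above every larval one (log2 fold change 0.89 ± 0.13 SE, adjusted p = 4.99e-05). The yolk protein vitellogenin (Vit6) had 461864, 336959 and 526513 normalized counts in larvae and 389252, 329285 and 398199.6 in juveniles, and these ranges overlapped (log2 fold change −0.25 ± 0.18, adjusted p = 0.26). Elongation factor 1-alpha (Ef1a-1) also overlapped, with means of 3273 and 3403 RPKM in larvae and juveniles (adjusted p = 0.483), as did the ribosomal protein Rl23 (2588 and 2542 RPKM, adjusted p = 0.959). The ribosomal protein Rs27 had 2537 RPKM in larvae and 3156 in juveniles (adjusted p = 0.0613).

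Other abundant transcripts differed by more than 2-fold. Elongation factor 2 (Ef2-1), which moves the ribosome along the mRNA, had 61148, 55789.7 and 66202 normalized counts in larvae and 141911, 171409 and 143446 in juveniles (log2 fold change 1.32 ± 0.11, adjusted p = 3.68e-07). The actin gene Act1-5 had 6234, 7524 and 5670.0 in larvae and 64384, 69646 and 71807 in juveniles (log2 fold change 3.40 ± 0.25, adjusted p = 7.91e-08), and only 65.0% of its reads were uniquely placed, so reads of other actin copies may be counted with it. Agt2-5, named after an alanine-glyoxylate aminotransferase, ranked second after Vit6 by larval RPKM, with 327543, 316426 and 267820.5 in larvae and 126801, 89997 and 113465 in juveniles (log2 fold change −1.47 ± 0.22, adjusted p = 5.87e-05).

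A set of genes had reads in one stage and none in the other. In juveniles 1592 genes had reads while all 3 larval libraries had 0, and 197 of these averaged 20 or more normalized counts. In larvae 809 genes had reads while all 3 juvenile libraries had 0, and 140 of these averaged 20 or more. A count of 0 over 3 libraries allows up to 3 reads by counting error alone, and folds against 0 are given as bounds on that basis. PCR copies carry no molecular identifier, so such limits cover counting error only.

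Several named genes were abundant in juveniles and had no larval read. Mfgm-1, named after the phosphatidylserine-binding protein lactadherin, had 1567, 1526 and 2343 normalized counts in juveniles, at least 1460.0-fold above larvae, with 27.9% intron reads. The C-type lectin Clc4e had 1388, 825 and 1455, at least 985-fold above larvae, and the neuronal pentraxin Nptx1-10 had 1069, 760.0 and 909.7, at least 736-fold. Eclc-15 (at least 993-fold) and Capr2-64, a caprin-2 copy with 35.5% intron reads (at least 751-fold), had no larval read either. The mucus gene Fcgbp-10 and the complement-type gene C1qt3-2, which are described further on, had similarly large differences.

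Other genes showed the opposite pattern. Hebp2-2, a heme-binding protein, had 5574, 3899 and 4878 normalized counts in larvae and 0 in juveniles (at least 4574-fold). The perlucin-like lectin Plcl-6 (1648, 1773 and 1756), the agrin copy Agrin-5 (1395, 985 and 1367) and the caveolin Cav3-2 (1031, 1393 and 1269.8) likewise had larval counts and no juvenile read, for bounds of 1649.8-fold, 1194-fold and 1177-fold.

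Whole animals were sequenced, so fewer cells of a type and less RNA per cell cannot be told apart in any of the following gene groups. Groups were built from gene names, which the files give after the best-matching known protein, and are described by the number of tested members called in each direction, beside 32.8% and 29.8% of all genes.

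**Figure D2:**
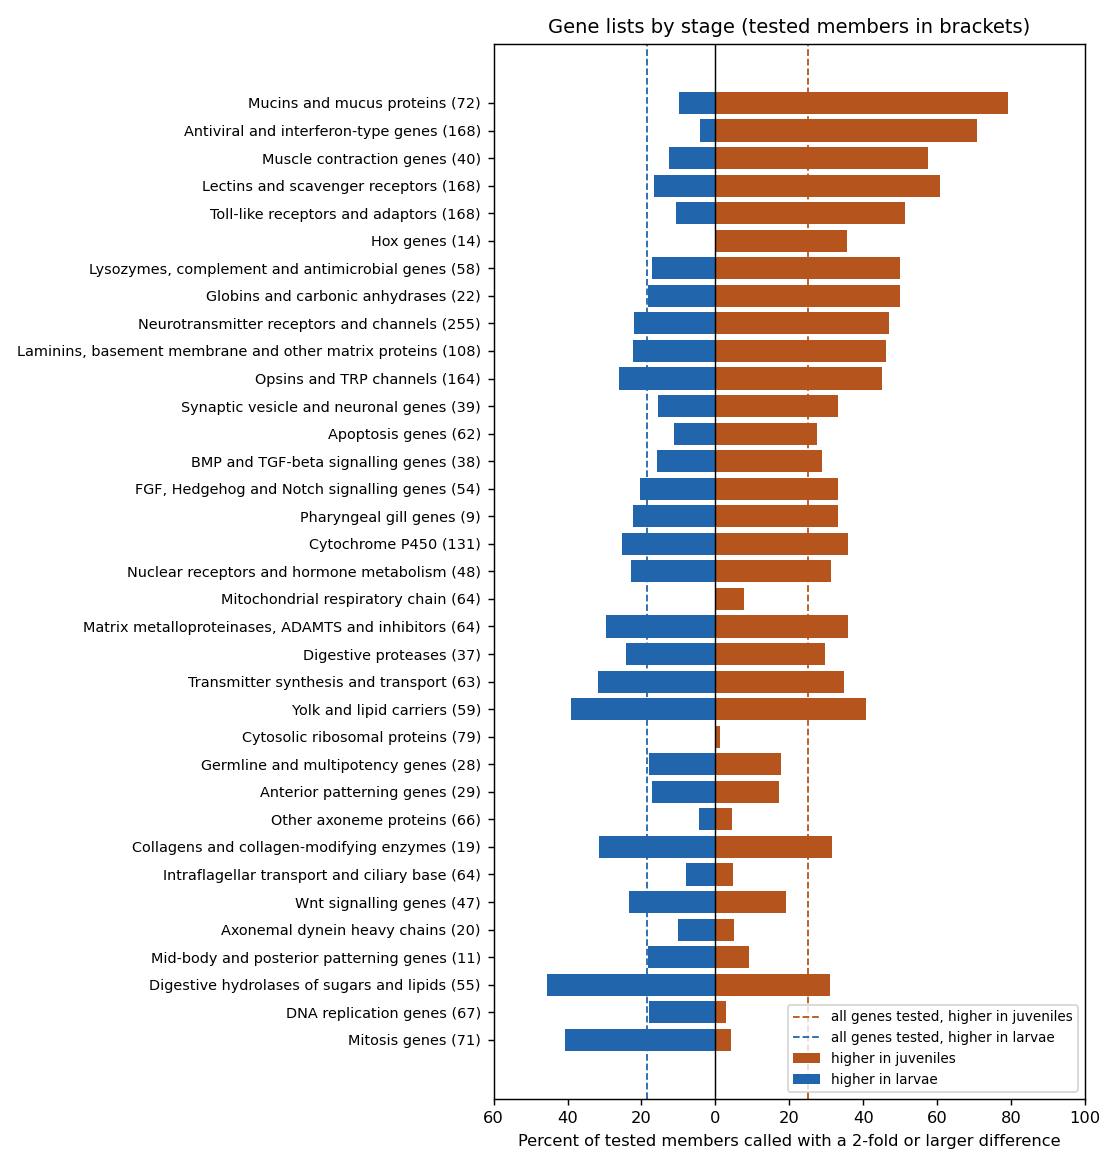
Horizontal bars give, for each of 35 gene lists, the percent of tested members called with at least a 2-fold difference, to the right where higher in juveniles and to the left where higher in larvae. Dashed lines give the same for all genes tested (25.2% and 18.4%). Many lists exceed them, among them the mucin, antiviral, muscle and lectin lists on the juvenile side. On the larval side these include the mitosis and digestive hydrolase lists.

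Cilia drive the swimming and feeding of the tornaria, and also cover the epidermis of the worm. Transcripts of the motile axoneme differed little between the stages. Of 20 axonemal dynein heavy chains tested of 26 found, 4 were higher in juveniles and 4 in larvae, and their summed level was 233 RPKM in larvae and 211 in juveniles. The outer-arm copy Dyh5-2 had 4979.6, 5404 and 6218 normalized counts in larvae and 3742, 3804 and 3574 in juveniles, a small difference without overlap (log2 fold change −0.58 ± 0.14, adjusted p = 0.00243). Dyh5-6 went the other way (0.37 ± 0.14, adjusted p = 0.0315), and this call was lost when any of 5 of the 6 libraries was left out. Of 66 other axoneme proteins, 25 were higher in juveniles and 5 in larvae, of which 3 and 3 by at least 2-fold.

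Single axoneme genes differed by more. Efhc2-2, an EF-hand protein of the doublet microtubules, had 162, 174 and 170.0 normalized counts in larvae and 1362, 1184 and 1361 in juveniles (log2 fold change 2.95 ± 0.12, adjusted p = 5.1e-10). The tektin Tekt3, a filament inside those doublets, was about 2-fold lower in juveniles (12026, 11836 and 9873 against 4986, 5584 and 6058, adjusted p = 0.000192).

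Intraflagellar transport and ciliary base genes, which build and gate cilia, gave 15 of 64 higher in juveniles and 12 higher in larvae, with 3 and 5 at 2-fold or more.

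Muscle genes were mostly higher in juveniles. Of 40 tested members of 46 found, 25 were higher in juveniles and 7 in larvae, the median log2 fold change was 1.37, and the summed level went from 742 RPKM in larvae to 4338 in juveniles. Troponin C (Tnnc2-2), the calcium sensor of striated muscle, had 7.38, 16.5 and 5.18 normalized counts in larvae and 7707, 7081 and 8525 in juveniles (log2 fold change 9.60 ± 0.68, adjusted p = 6.64e-08). The myosin light chain Myl1-1 had 1465, 1655 and 754 in larvae and 36727, 34083 and 39453 in juveniles (log2 fold change 4.83 ± 0.38, adjusted p = 1.77e-07). The LIM-domain protein Csrp2-1, found at the actin cytoskeleton of muscle, had 347, 314 and 251 and 7392, 7341 and 7633 (4.62 ± 0.22, adjusted p = 1.58e-09), with 26.9% of its reads in introns. In all 3 genes the stages were widely separated.

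A gene named after titin, a giant sarcomere protein, was among the exceptions, though it has only 5461 bases of exon. Titin-10 had 5511, 4445 and 6171 normalized counts in larvae and 32.4, 34.3 and 36.4 in juveniles (log2 fold change −7.28 ± 0.40, adjusted p = 5.84e-09). It lies on the chromosome sequence chr14A_Sc2, and titin is built of repeated immunoglobulin-type domains that other proteins also carry.

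Of 39 synaptic vesicle and neuronal genes, 19 were higher in juveniles and 10 in larvae. Their summed level was 421 RPKM in larvae and 415 in juveniles. Summed as normalized counts, they gave 23852 to 29157 in larval libraries and 30326 to 33509 in juvenile libraries, so the 2 scales differed. Neuroligins are postsynaptic adhesion proteins. Nlgn2-2 had 845, 593 and 686 normalized counts in larvae and 3.89, 4.67 and 0 in juveniles (log2 fold change −8.28 ± 0.64, adjusted p = 1.32e-07). Its neighbour in name, Nlgn2-1, had 75.2, 76.3 and 86.6 in juveniles and 1 read over the larval libraries. Nrx4, named after neurexin-4, which is a septate junction protein in Drosophila, had 448, 471 and 538 in larvae and 3.89, 3.12 and 3.44 in juveniles (−7.07 ± 0.39, adjusted p = 6.35e-09).

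The transmitter receptors and channels formed the largest group, with 132 of 255 tested members higher in juveniles and 65 higher in larvae. By at least 2-fold, 120 (47.1%) and 56 (22%) differed. Among all genes whose name is carried by 5 to 19 genes these shares were 41.8% and 23.5%. For names carried by 20 or more genes they were 51.5% and 19.8%, so the juvenile share was not particular to this list. Summed levels were similar, at 755 RPKM in larvae and 809 in juveniles. Receptors of the inhibitory transmitter glycine included Glra3-15, with 5.54, 6.59 and 1.04 normalized counts in larvae and 287, 291 and 285 in juveniles (log2 fold change 6.07 ± 0.45, adjusted p = 1.05e-07). Nicotinic acetylcholine receptor subunits marked both stages. Acha3-4 had 16.6, 9.88 and 4.15 in larvae and 554, 509 and 493 in juveniles (5.78 ± 0.30, adjusted p = 3.73e-09). Ach10-8 had 727, 673 and 899 in larvae and 2.59, 1.56 and 2.06 in juveniles (−8.44 ± 0.36, adjusted p = 6.12e-10), and Acha9-3 had 359.8, 387 and 338 in larvae and no juvenile read, at least 346-fold lower.

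Transmitter synthesis and transport genes divided evenly, with 25 of 63 higher in juveniles and 23 higher in larvae. The vesicular transporter of GABA and glycine, Viaat-2, averaged 3.54 normalized counts in larvae and 79.7 in juveniles (log2 fold change 4.69 ± 0.49). The plasma membrane GABA transporter Sc6a1-1 had 2817, 2466 and 2790.4 in larvae and 59.7, 81.0 and 145 in juveniles (−4.78 ± 0.37, adjusted p = 1.57e-07). The acetylcholinesterase copy Aces-18 averaged 91.7 in larvae and had 1 read over the juvenile libraries, and of 20 tested acetylcholinesterase copies 12 were higher in larvae and 5 in juveniles.

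Channels of the TRP and polycystin families and opsins serve touch, temperature, chemical and light senses in animals. Of 164 tested, 78 were higher in juveniles and 49 in larvae, while the summed level was 859 RPKM in larvae and 415 in juveniles. At 2-fold or more the shares were 45.1% and 26.2%, beside 41.8% and 23.5% among all genes whose name is carried by 5 to 19 genes. The polycystin-1-like copy Pk1l2-33 had 4417, 3928 and 4186 normalized counts in larvae and 1.30, 1.56 and 0.687 in juveniles, which was 3 reads in all. Trpc4-10 had 0, 4.39 and 2.07 in larvae and 323, 291 and 359 in juveniles (log2 fold change 6.97 ± 0.60), and Trpc5-3 had 88.6, 137 and 112 in larvae and no juvenile read. The 3 genes differed between the stages by more than any spread among libraries.

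Hox genes specify position along the trunk. All 14 found were tested, 7 were higher in juveniles, none was higher in larvae, and 13 of the 14 lie on chr23A_Sc2. Hxb7 had 114, 179 and 61.2 normalized counts in larvae and 1178, 899 and 1112 in juveniles (log2 fold change 3.17 ± 0.28, adjusted p = 5.87e-07). Hxb9a had 288, 345 and 448 in larvae and 895, 618 and 789 in juveniles (1.09 ± 0.20, adjusted p = 0.000374). Hxa5a-1 had 350.5, 289 and 182 and 690.0, 545 and 711 (1.26 ± 0.21, adjusted p = 0.00016). The ranges of the stages overlapped in none of the 3.

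The other members outside the Hoxd10 group differed by less. Hxa3-1 (0.74 ± 0.21, adjusted p = 0.00723) and Hxa7-1 (0.97 ± 0.21, adjusted p = 0.00147) were higher in juveniles, with 31.2% and 65.3% of their reads uniquely placed. Hxc4a (log2 fold change 0.39, adjusted p = 0.121), Hxa3-2 (0.35, adjusted p = 0.0928), Hxa7-2 (0.29, adjusted p = 0.352) and Hxd9a (−1.01, adjusted p = 0.0528) did not pass the test.

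Several genes carry the name of the posterior gene Hoxd10, and they behaved unlike one another. Hxd10-4 had 5.54, 18.7 and 9.33 normalized counts in larvae and 192, 126 and 133 in juveniles (log2 fold change 3.66 ± 0.42, adjusted p = 6.02e-06), and Hxd10-5, on the scaffold scaf55, had 3.69, 6.59 and 5.18 and 83.0, 21.8 and 57.0 (3.32 ± 0.60, adjusted p = 0.000293). Hxd10-1 (log2 fold change −0.013), Hxd10-2 (0.32) and Hxd10-3 (−1.01) overlapped between the stages and were not called. Of the reads of Hxd10-2 and Hxd10-3, 20.6% and 18.1% were uniquely placed, so their levels could be exchanged with those of a near-identical copy.

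**Figure D3:**
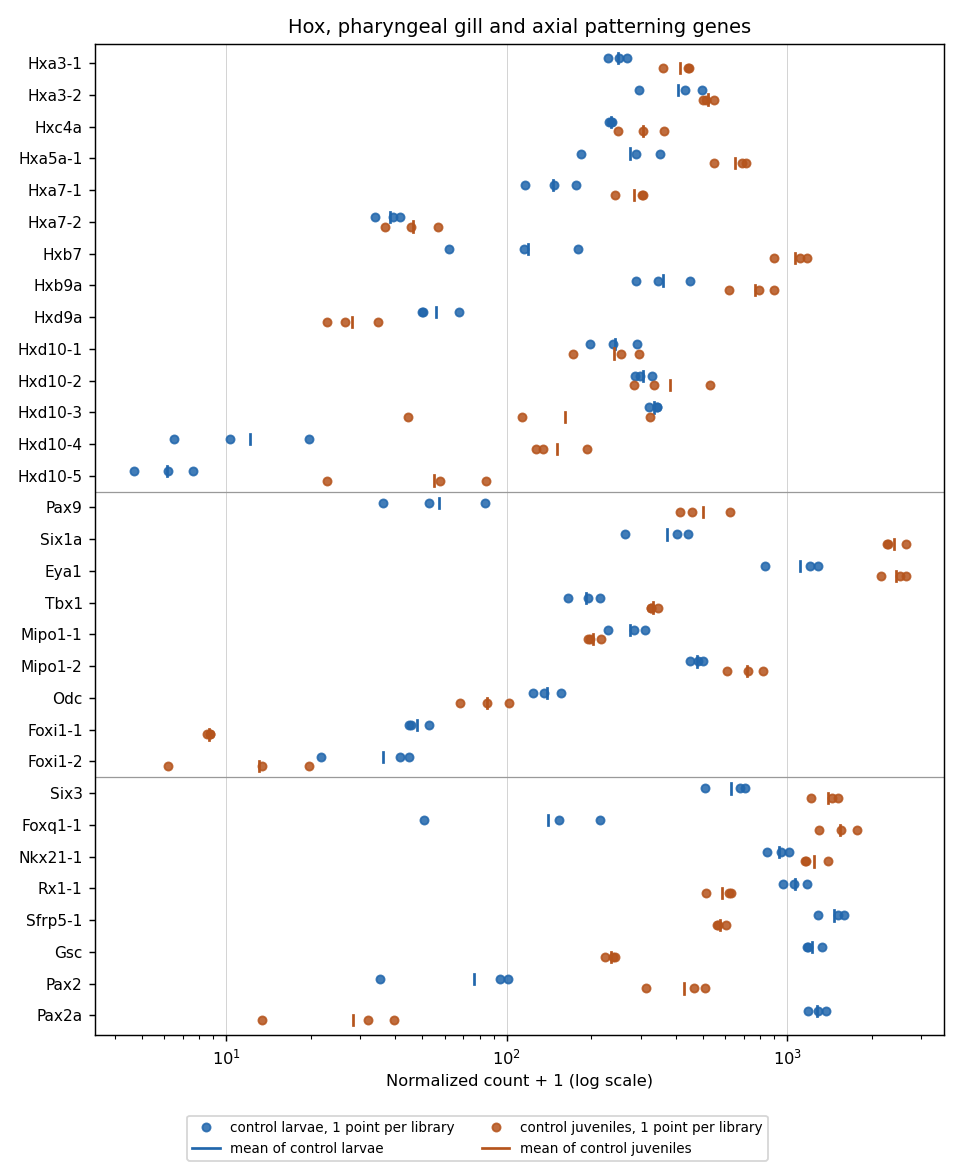
Normalized counts plus 1 on a log axis are shown for 14 Hox genes, 9 pharyngeal gill genes and 8 axial patterning genes, with 1 point for each of the 3 control larva and 3 control juvenile libraries and a bar for each mean. Hxb7, Hxd10-4, Pax9, Six1a, Foxq1-1 and Pax2 show juvenile points to the right of every larval point, and Gsc and Pax2a the reverse.

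The gill slits open from the pharynx of the late larva and juvenile, and several transcription factors are shared by gill development in acorn worms and vertebrates. Of 9 genes tested, 5 were higher in juveniles and 3 in larvae, and their summed level was 65.3 RPKM in larvae and 205 in juveniles. Pax9, a factor of the pharyngeal pouches, had 51.7, 82.4 and 35.2 normalized counts in larvae and 412, 458 and 625 in juveniles (log2 fold change 3.14 ± 0.32, adjusted p = 1.93e-06). Six1a had 443, 404 and 263 in larvae and 2288, 2275 and 2645 in juveniles (2.71 ± 0.18, adjusted p = 4.67e-08), with 33.1% of its reads in introns. Its cofactor Eya1 had 1288, 1199 and 830.3 and 2520.1, 2163 and 2641 (1.15 ± 0.16, adjusted p = 4.69e-05). Tbx1, a factor of the pharyngeal wall with 32.1% intron reads, was also higher in juveniles (0.80 ± 0.19, adjusted p = 0.00258). In these 4 genes no juvenile library fell within the larval range.

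In deuterostomes a conserved chromosomal cluster places Pax9 near Mipol1, the carrier gene Odc and Nkx2.1. Here Pax9, Mipo1-1, Mipo1-2, Odc and Nkx21-1 all lie on chr1A_Sc2, and their differences had both signs. Mipo1-2 was higher in juveniles (0.59 ± 0.14, adjusted p = 0.0019), Odc was higher in larvae (−0.69 ± 0.18, adjusted p = 0.00472), and Mipo1-1 was not called (−0.44, adjusted p = 0.0843). Of the reads of Mipo1-1 and Mipo1-2, 73.7% and 67.1% were uniquely placed. Both copies named Foxi1 were at low counts and higher in larvae, with under 25% of their reads uniquely placed, and the call of Foxi1-1 (adjusted p = 0.0414) was lost when any 1 of the 6 libraries was left out and in DESeq2 (adjusted p = 0.149) and limma voom (0.0998), and that of Foxi1-2 without larva 2.

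Anterior patterning genes divided between the stages, with 9 of 29 tested members higher in juveniles and 8 higher in larvae, of 55 found, and a summed level of 302 RPKM in larvae and 343 in juveniles. Six3, a factor of the most anterior ectoderm in bilaterians, had 708, 677 and 509 normalized counts in larvae and 1218, 1448 and 1511 in juveniles (log2 fold change 1.14 ± 0.17, adjusted p = 5.22e-05). Foxq1-1 had 153, 214 and 49.8 in larvae and 1558, 1300.4 and 1765 in juveniles (3.48 ± 0.45, adjusted p = 1.89e-05). Goosecoid (Gsc) had 1173, 1183 and 1329.9 in larvae and 239, 241 and 223 in juveniles (−2.39 ± 0.16, adjusted p = 3.6e-08). The Wnt antagonist Sfrp5-1 had 1588, 1518 and 1282 and 564, 559 and 605 (−1.34 ± 0.12, adjusted p = 6.55e-07). For all 4 the stage ranges were separate.

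The retinal and forebrain factor Rx1-1 (−0.86 ± 0.15), the eye factor Pax6-2 (−0.56 ± 0.14) and Fezf2-2 (−0.94 ± 0.32, 40.3% uniquely placed reads) were higher in larvae by less than 2-fold. Nkx21-1 (0.41 ± 0.13) and Barh2-2 (0.62 ± 0.23) were higher in juveniles. The call of Fezf2-2 was lost without larva 2 or juvenile 1, that of Nkx21-1 without larva 3 or juvenile 3, and that of Barh2-2 without larva 3, juvenile 1 or juvenile 3. Emx1 (log2 fold change 0.19, adjusted p = 0.267), Nr2e1 (0.0085, adjusted p = 0.971) and Hhex-3 (−0.049, adjusted p = 0.756) overlapped between the stages.

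Among 11 mid-body and posterior genes, 3 were higher in juveniles and 4 in larvae. The Pax2-type genes, factors of the midbrain-hindbrain region, kidney and sensory organs in vertebrates, had opposite patterns. Pax2 on chr18A_Sc2 had 99.6, 93.4 and 34.2 normalized counts in larvae and 508, 313 and 463 in juveniles (log2 fold change 2.53 ± 0.34, adjusted p = 2.64e-05). Pax2a on chr13A_Sc2 had 1183, 1369.6 and 1281 in larvae and 31.1, 12.5 and 38.5 in juveniles (−5.45 ± 0.27, adjusted p = 2.31e-09). The caudal-type genes Cdx2 (0.99 ± 0.31, adjusted p = 0.0125) and Cad-1 (−0.91 ± 0.13, adjusted p = 3.56e-05) also lay on opposite sides, and the call of Cdx2 was lost without larva 3 or juvenile 3.

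Wnt proteins signal through Frizzled receptors, and 18 of 47 tested Wnt pathway genes (38.3%) were higher in juveniles and 12 (25.5%) in larvae, close to the shares of all genes. The ligand Wnt9a had 14.8, 11.0 and 6.22 normalized counts in larvae and 75.2, 87.2 and 82.5 in juveniles (log2 fold change 2.99 ± 0.31), and the secreted inhibitor Wif1 averaged 68.9 in larvae and 393 in juveniles (2.53 ± 0.32). The receptor Fzd1-1 had 2039, 1744 and 2298 in larvae and 32.4, 43.6 and 29.6 in juveniles (−5.88 ± 0.30, adjusted p = 3.42e-09), and Fzd8-1 was also higher in larvae (−3.04 ± 0.53).

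Of 38 BMP and TGF-beta genes, 18 were higher in juveniles and 12 in larvae. Several secreted antagonists of these ligands differed, in both directions. Chordin (Chrd), which binds BMPs, had 673, 584 and 540.0 normalized counts in larvae and 29.8, 23.4 and 37.8 in juveniles (log2 fold change −4.25 ± 0.27, adjusted p = 2.8e-08). Lefty (Lfty2-1), an antagonist of Nodal, had 97.8, 105 and 168 in larvae and no juvenile read, at least 118-fold lower. Noggin (Nogg3-2) had 48.0, 49.4 and 30.1 in larvae and 350.2, 308 and 374 in juveniles (3.04 ± 0.25, adjusted p = 2.35e-07), and gremlin (Grem1-2) averaged 7.81 and 67.1 (3.08 ± 0.44). The ligand Bmp3 was higher in juveniles (2.30 ± 0.17) and the myostatin-type ligand Gdf8-2 in larvae (−2.14 ± 0.23).

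FGF, Hedgehog and Notch genes, counted as 1 list, gave 21 of 54 (38.9%) higher in juveniles and 17 (31.5%) in larvae, also close to the shares of all genes. Dispatched releases Hedgehog ligands from cells. Disp1-1 had 2280.4, 1454 and 1904 normalized counts in larvae and 1 read over the juvenile libraries, and Disp1-2 had 1365, 1118 and 1136 in larvae and 129.7, 115 and 163 in juveniles (log2 fold change −3.13 ± 0.17, adjusted p = 4.66e-09). The FGF receptor copy Fgfr2-4 had 3996, 3939 and 2742 in larvae and 1704, 1374 and 1817 in juveniles (−1.12 ± 0.17, adjusted p = 7.06e-05), whereas Fgfr4-3 averaged 3.10 and 139.6 (5.37 ± 0.38).

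Nuclear receptors and hormone enzymes regulate metamorphosis in insects and amphibians. Of 48 tested, 20 were higher in juveniles and 13 in larvae. The thyroid hormone receptor gene Tha-1 had 1166, 1226 and 989.9 normalized counts in larvae and 14.3, 6.23 and 13.7 in juveniles, a 92.9-fold difference (log2 fold change −6.54 ± 0.23, adjusted p = 1.7e-10). Nr1d2-1, related to the circadian repressor REV-ERB, had 5.54, 5.49 and 11.4 in larvae and 236, 157 and 235 in juveniles (4.73 ± 0.39, adjusted p = 2.57e-07), and Nr1d1-1 was higher in juveniles too (2.94 ± 0.19). Hr3, a receptor of the ecdysone cascade in insects, had 92.2, 112 and 95.4 in larvae and 632, 525 and 619.8 in juveniles (2.56 ± 0.16, adjusted p = 2.13e-08). All 4 genes kept their call under every alternative that tested them.

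Collagens and the enzymes that modify them gave 6 of 19 higher in juveniles and 7 in larvae, and their summed level was 1565 RPKM in larvae and 1111 in juveniles. The fibrillar collagen Coba1-1 averaged 1154 normalized counts in larvae and 421 in juveniles (log2 fold change −1.45 ± 0.24, adjusted p = 0.000171). The cartilage-type collagen Co9a1 had 326, 268 and 465 in juveniles and 2 reads over the larval libraries. Coea1 varied too much among juveniles to be read closely, with 274, 1132 and 56.3, and its call was lost in limma voom (adjusted p = 0.0559).

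Laminins, basement membrane and other matrix proteins were more often higher in juveniles, 60 of 108 tested against 29 higher in larvae, of 165 found. At 2-fold or more the shares were 46.3% and 22.2%, beside 41.8% and 23.5% among all genes whose name is carried by 5 to 19 genes. The summed level was 863 RPKM in larvae and 1143 in juveniles. Summed as normalized counts, the list gave 64575.5 to 78564.0 in larval libraries and 64295.5 to 64917.7 in juvenile libraries, so the 2 scales differed. Ncan-1 is named after the lectican proteoglycan neurocan, but has only 803 bases of exon, and the identity of its protein was not tested. Ncan-1 had 7.38, 2.20 and 3.11 normalized counts in larvae and 3215, 4121 and 3496 in juveniles (log2 fold change 9.86 ± 0.34, adjusted p = 1.39e-10). Peroxidasin (Pxdn-19), which cross-links collagen IV, had 20.3, 34.0 and 3.11 in larvae and 8599, 10440.2 and 10768 in juveniles (9.04 ± 0.56, adjusted p = 1.91e-08). The hemicentin copy Hmcn1-24 had 3090.3, 2416 and 3315 in larvae and 42.8, 48.3 and 40.5 in juveniles (−6.08 ± 0.18, adjusted p = 5.16e-11).

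Of 64 tested matrix metalloproteinases, ADAMTS proteins and inhibitors, which cut the matrix or block its cutting, 28 were higher in juveniles, 22 were higher in larvae and 14 were not called. The matrix metalloproteinases Mmp13-1, Mmp12 and Mmp10-1, all on chr10A_Sc2, had juvenile means of 237, 202 and 156 normalized counts and no larval read, at least 191-fold, 163-fold and 126-fold higher. Of the reads of Mmp13-1 and Mmp12, 44.4% and 47.6% lay in introns. ADAMTS9 copies on chr22A_Sc2 showed the reverse. Ats9-7 had 2026, 2082 and 3926 in larvae and 9.08, 1.56 and 9.62 in juveniles (log2 fold change −8.46 ± 0.39), and Ats9-4 had 1173, 940.2 and 1766 and 6.49, 6.23 and 0.687 (−8.44 ± 0.48).

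Of 55 tested enzymes that split sugars and lipids, of 71 found, 18 were higher in juveniles and 26 in larvae, with a median log2 fold change of −0.836 and a summed level of 1050 RPKM in larvae and 640 in juveniles. The pancreatic lipase-related gene Lipr1-1 had 11489, 5219 and 13766 normalized counts in larvae and 3.89, 3.12 and 3.44 in juveniles (log2 fold change −11.46 ± 0.99, adjusted p = 4.45e-07). Alpha-amylase (Amy1-1), which digests starch, had 2428, 1044 and 2104 in larvae and 2.59, 0 and 0 in juveniles, a read ratio of 2550 (95% counting interval 706 to 21065), an exact binomial interval that covers counting error only. For Lipr2-2 the counts were 0, 0 and 1.04 in larvae and 558, 506 and 1337 in juveniles, a ratio of 2276 (95% counting interval 408 to 89911).

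Copies of one lipase differed in opposite directions. Lipp-1 had 941, 454 and 1178 normalized counts in larvae and 1.30, 0 and 0 in juveniles, and Lipp-3 had 1.84, 1.10 and 2.07 in larvae and 1789, 1658 and 3103 in juveniles (log2 fold change 10.26 ± 0.37, adjusted p = 2.06e-10). Both are named after pancreatic triacylglycerol lipase and lie on chr20A_Sc2. Of the reads of Lipp-3, 86.9% were uniquely placed.

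Digestive proteases gave 13 of 37 higher in juveniles and 14 in larvae, and their summed level was 1718 RPKM in larvae and 859 in juveniles. Enteropeptidase activates trypsinogen in the vertebrate gut. Entk-1 had 3913, 3246 and 3860.2 normalized counts in larvae and 0, 0 and 1.37 in juveniles, whereas Entk-3 had 20.3, 6.59 and 11.4 in larvae and 1450.1, 948 and 468 in juveniles (log2 fold change 6.32 ± 0.54, adjusted p = 3.65e-07). The carboxypeptidase Cbpa2-3 had 3374, 2625 and 4036 in larvae and 20.8, 23.4 and 21.3 in juveniles (−7.26 ± 0.43, adjusted p = 1.19e-08), and Cbpa4-1 had 284, 87.2 and 108 in juveniles and no larval read. Chymotrypsin (Ctrb-3) was higher in juveniles (5.45 ± 0.52).

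**Figure D4:**
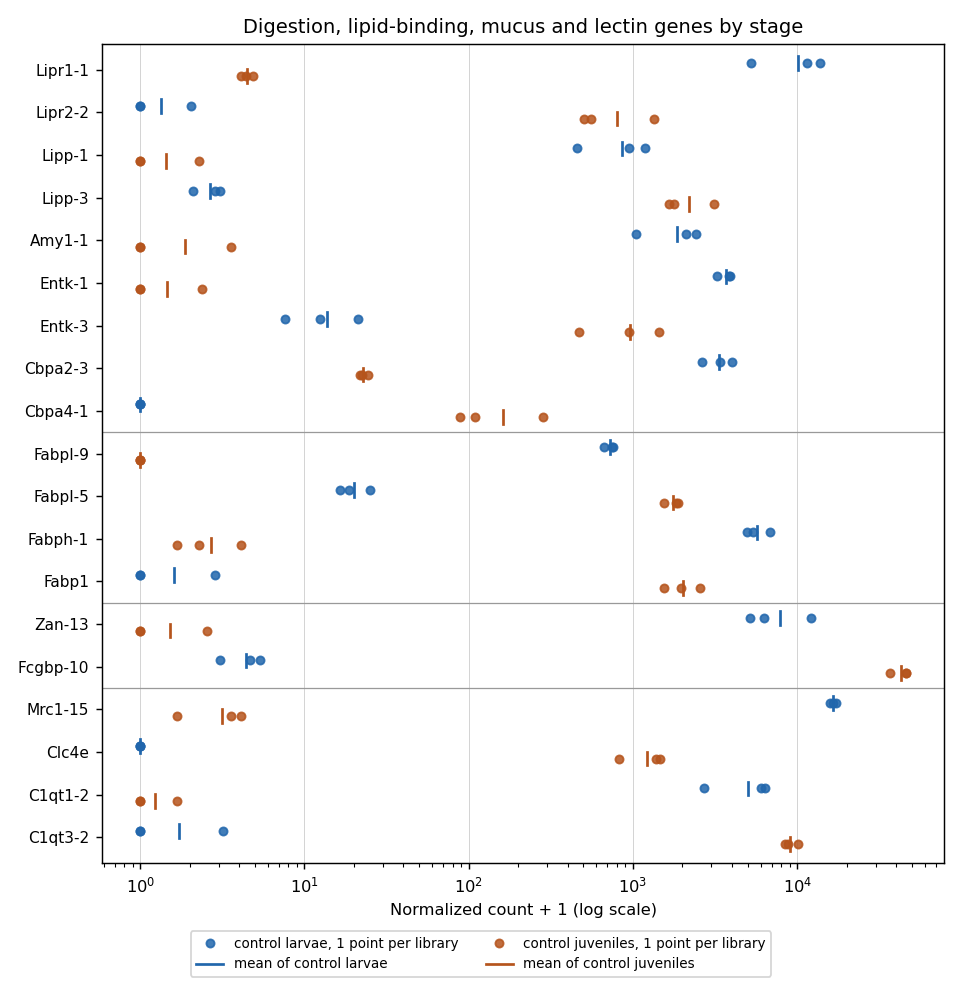
Normalized counts plus 1 on a log axis are shown for 19 genes of digestion, lipid binding, mucus and lectins, with 1 point for each of the 3 control larva and 3 control juvenile libraries and a bar for each mean. Related genes such as Lipp-1 and Lipp-3, or Entk-1 and Entk-3, lie at opposite ends in the 2 stages, and no gene shown has overlapping stage ranges.

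Of 59 tested yolk and lipid-binding genes, 24 were higher in juveniles and 26 in larvae, and the summed level was 9453 RPKM in larvae and 5618 in juveniles. Fatty acid-binding proteins carry lipids inside gut and muscle cells. Fabph-1 had 5376, 4966 and 6810.2 normalized counts in larvae and 1.30, 3.12 and 0.687 in juveniles (log2 fold change −11.86 ± 0.62, adjusted p = 3.41e-09), and Fabpl-9 and Fabpl-8 averaged 724 and 664 in larvae with no juvenile read. These 3 lie on chr1A_Sc2. Fabpl-5 and Fabp1, on chr10A_Sc2, were juvenile genes. Fabpl-5 had 24.0, 17.6 and 15.6 in larvae and 1883, 1556 and 1841 in juveniles (6.57 ± 0.32, adjusted p = 2.14e-09), and Fabp1 had 1 larval read and 1962, 1548 and 2568 in juveniles.

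Mucus genes had the largest median difference of the 35 lists. Of 72 tested members of 89 found, 58 were higher in juveniles and 7 in larvae, the median log2 fold change was 4.63 (4.52 with genes lacking reads in a stage set at their bound), and the summed level was 931 RPKM in larvae and 4459 in juveniles. Most of it came from genes named after the mucus-gel protein IgGFc-binding protein, Fcgbp, of which 22 of 24 were tested, 21 were higher in juveniles and none in larvae, with summed levels of 3.08 and 3714 RPKM. Fcgbp-10 had 3.69, 4.39 and 2.07 normalized counts in larvae and 36495, 45885 and 46069 in juveniles (log2 fold change 13.60 ± 0.27, adjusted p = 7.5e-12). Fcgbp-9, also on chr5A_Sc2, had 1.84, 1.10 and 0 in larvae and 3371, 4776 and 3912 in juveniles, and Fcgbp-16 on chr21A_Sc2 had 769, 688 and 641 in juveniles and no larval read.

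Larvae had mucus-type genes of their own. Zan-13, named after zonadhesin, a sperm-surface protein of mammals built of von Willebrand factor D domains, had 5189.9, 6247 and 12143 normalized counts in larvae and 1 read over the juvenile libraries. Zan-4 had 7867, 6786 and 11263 in larvae and 499, 669.6 and 524 in juveniles (log2 fold change −3.94 ± 0.23, adjusted p = 9.34e-09), and the transmembrane mucin copy Muc4-5 averaged 1517 and 51.1 (−4.86 ± 0.23).

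Of 168 tested antiviral and interferon-type genes, of 200 found, 126 were higher in juveniles, 11 were higher in larvae and 31 were not called, the median log2 fold change was 1.93, and the summed level was 330 RPKM in larvae and 1158 in juveniles. Par14-34, named after the interferon-induced ADP-ribosyltransferase PARP14, had 3.69, 2.20 and 3.11 normalized counts in larvae and 709.5, 619.8 and 609 in juveniles (log2 fold change 7.74 ± 0.27, adjusted p = 1.39e-10). The ubiquitin ligase copy Dtx3l-2 had 1 larval read and 148, 126 and 178 in juveniles. A further copy, Dtx3l-18, was among the exceptions, with 238, 199.9 and 252 in larvae and 28.5, 18.7 and 30.9 in juveniles (−3.10 ± 0.24).

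Toll-like receptors, which recognise microbial molecules, and their adaptors gave 92 of 168 tested members higher in juveniles and 18 in larvae, of 249 found. At 2-fold or more, 51.2% were higher in juveniles and 10.7% in larvae. Among all genes whose name is carried by 20 or more genes the shares were 51.5% and 19.8%, so the juvenile share was not particular to this list. Tlr4 had 1.84, 0 and 0 normalized counts in larvae and 58.4, 71.6 and 59.1 in juveniles. Some members went the other way. Tlr1-8 had 376, 178 and 117 in larvae and 6.49, 24.9 and 5.50 in juveniles (log2 fold change −4.33 ± 0.58), and the adaptor Traf3-3 had 127, 142 and 115 and 11.7, 9.34 and 9.62 (−3.64 ± 0.33). In irradiated animals 76 of the 126 antiviral and 50 of the 92 Toll-like juvenile calls were made again, with medians of 0.936 and 0.353 against 1.93 and 1.20 in controls. The difference between these medians was not tested.

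Lectins and scavenger receptors, which bind sugars on microbes and cells, gave 104 of 168 higher in juveniles and 29 in larvae, of 252 found. The median log2 fold change was 2.46, and the summed level was 1470 RPKM in larvae and 2140 in juveniles. Summed as normalized counts, the list gave 48042 to 63629 in larval libraries and 46034 to 49202 in juvenile libraries, so the 2 scales differed. The lectin Lech-13 had 789, 828 and 1125 normalized counts in juveniles and no larval read, at least 736-fold higher. Larvae instead had high levels of 2 macrophage mannose receptor copies on chr11A_Sc2. Mrc1-15 had 16546, 15801 and 17179 in larvae and 2.59, 3.12 and 0.687 in juveniles (log2 fold change −13.09 ± 0.69, adjusted p = 3.7e-09), and Mrc1-13 had 9592, 7642 and 9692 and 5.19, 7.79 and 2.75 (−10.88 ± 0.53). The lectin Lecg-4 had 4917, 3048 and 7459 in larvae and 3 juvenile reads.

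Of 58 lysozyme, complement and antimicrobial genes, 32 were higher in juveniles and 13 in larvae. C1q-domain genes marked both stages. C1qt3-2 had 0, 2.20 and 0 normalized counts in larvae, which is 2 reads, and 8751, 8419 and 10143 in juveniles, a ratio of 11338 (95% counting interval 3138 to 93623). C1qt1-2 had 6328, 6055 and 2712 in larvae and 1 read in juveniles, a ratio of 13720 (95% counting interval 2462 to 541969). The lysozyme Lys2-1, an enzyme that cuts bacterial cell walls, had 3 larval reads and 1577, 1606 and 1967 in juveniles, and 32.7% of its reads were uniquely placed.

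Genes of the basic cell machinery differed by small amounts. Of 79 cytosolic ribosomal proteins, 43 were higher in juveniles and 1 in larvae, but only 1 by 2-fold or more, and the median log2 fold change was 0.347. Rs14 had 10815, 9722 and 13840.2 normalized counts in larvae and 19288, 19480.5 and 18042 in juveniles (log2 fold change 0.72 ± 0.15, adjusted p = 0.00115). The single larval call, Rs3, was near the threshold (−0.30 ± 0.12, adjusted p = 0.0428) and was lost when any of 4 libraries was left out. Respiratory chain genes gave 29 of 64 higher in juveniles and 1 in larvae, with 5 at 2-fold or more. The larval call, Qcr2, was lost when any of 5 libraries was left out. C560, a subunit of succinate dehydrogenase, had 812, 783 and 886 and 2516, 2379.6 and 2532 (1.58 ± 0.13, adjusted p = 2.08e-07).

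Cytochrome P450 enzymes, which oxidise steroids, lipids and foreign compounds, gave 50 of 131 higher in juveniles and 37 in larvae, of 185 found. Cp2r1-1, named after the vitamin D 25-hydroxylase, had 0, 4.39 and 0 normalized counts in larvae and 1355, 3530.4 and 2274 in juveniles (log2 fold change 10.39 ± 0.78, adjusted p = 1.04e-07). Cp2u1-32 had 1574, 1931 and 1453 in larvae and 1 juvenile read. Globins and carbonic anhydrases, which handle oxygen and carbon dioxide, gave 12 of 22 higher in juveniles and 6 in larvae. The globin Glb had 11.1, 1.10 and 5.18 in larvae and 904, 508 and 755 in juveniles (7.13 ± 0.46, adjusted p = 2.45e-08), and the carbonic anhydrase Cah14-1 had 1332, 1304 and 2034 and 23.4, 9.34 and 19.2 (−6.44 ± 0.34, adjusted p = 3.73e-09).

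Cell division genes were mostly higher in larvae. Of 71 mitosis genes, 45 were higher in larvae and 4 in juveniles, with a median log2 fold change of −0.865. Cdc20-1, an activator of the anaphase-promoting complex, had 179, 164 and 147 normalized counts in larvae and 53.2, 32.7 and 52.2 in juveniles (log2 fold change −1.80 ± 0.24, adjusted p = 2.29e-05). Rgap1, a protein of the central spindle, had 196, 198 and 169 and 54.5, 38.9 and 71.5 (−1.74 ± 0.31, adjusted p = 0.000304). The spindle proteins Dlgp5 (−1.27 ± 0.30) and Nusap (−1.26 ± 0.25) were higher in larvae as well, and Ince (log2 fold change −0.44, adjusted p = 0.0724) and Anln (−0.67, adjusted p = 0.0537) were not called. The kinase copy Cdk1-1 went the other way, with 68.3, 58.2 and 60.1 in larvae and 263, 251 and 174 in juveniles (1.88 ± 0.21, adjusted p = 5.28e-06).

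DNA replication genes gave 27 of 67 higher in larvae and 2 in juveniles, with a median log2 fold change of −0.415. Tipin, a protein of the replication fork, had 221, 163 and 234 normalized counts in larvae and 41.5, 10.9 and 35.7 in juveniles (log2 fold change −2.75 ± 0.43, adjusted p = 9.08e-05). Caf1a, a subunit of the chromatin assembly factor, had 446, 502 and 459 and 187, 199 and 208 (−1.24 ± 0.14, adjusted p = 7.17e-06). Of 28 germline and multipotency genes, 13 were higher in larvae and 5 in juveniles. The tudor-domain genes Tdrd6-2 (−1.92 ± 0.29) and Tdrd5 (−1.62 ± 0.33) were higher in larvae. The germ-cell RNA-binding gene Boll had 11.1, 19.8 and 5.18 in larvae and 108, 148 and 155 in juveniles (3.50 ± 0.44, adjusted p = 1.41e-05), and the piRNA helicase gene Spne-2 had 46.1, 13.2 and 24.9 and 239, 506 and 195 (3.55 ± 0.46, adjusted p = 1.96e-05).

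Apoptosis genes gave 25 of 62 higher in juveniles and 10 in larvae, 17 and 7 of them by at least 2-fold, of 86 found. Caspases are the proteases that carry out cell death. Casp6-1 had 25.8, 29.7 and 28.0 normalized counts in larvae and 287, 268 and 311 in juveniles (log2 fold change 3.36 ± 0.21, adjusted p = 2.02e-08). On chr21A_Sc2, Casp8-21 had 181, 135 and 238 in larvae and 15.6, 17.1 and 28.9 in juveniles (−3.10 ± 0.42).

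Copies of one name that differed in opposite directions were counted over all named genes. Of 2397 names carried by at least 2 tested genes, 605 (25.2%) had one copy at least 2-fold higher in juveniles and another at least 2-fold higher in larvae, 627 had such copies only on the juvenile side, 455 only on the larval side and 710 had none. Names with many copies have more chances to hold both. Of the 1271 names with exactly 2 tested genes, 67 had one on each side, 114 had both on the juvenile side and 72 had both on the larval side. A stricter count asked for a copy on each side with a 16-fold difference, 1000 normalized counts or more in its higher stage and at least 80% uniquely placed reads, and 15 names met it, including Mrc1, Fabpl, Zan, Plcl and Muc4.

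The share of genes that differed grew with the number of genes of the same name. Among genes with a name of their own, 18.3% of 6562 differed by at least 2-fold, 7.73% on the juvenile and 10.6% on the larval side. For names with 2 to 4 genes it was 42.0% of 4135, for 5 to 19 genes 65.3% of 3799, and for 20 or more genes 71.4% of 3098, with 51.5% on the juvenile and 19.8% on the larval side. Restricted to genes with at least 95% uniquely placed reads, the shares in the same order were 17.9%, 42.1%, 66.9% and 75.3%. Genes of one name are not independent, so these shares are a description with no test.

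**Figure D5:**
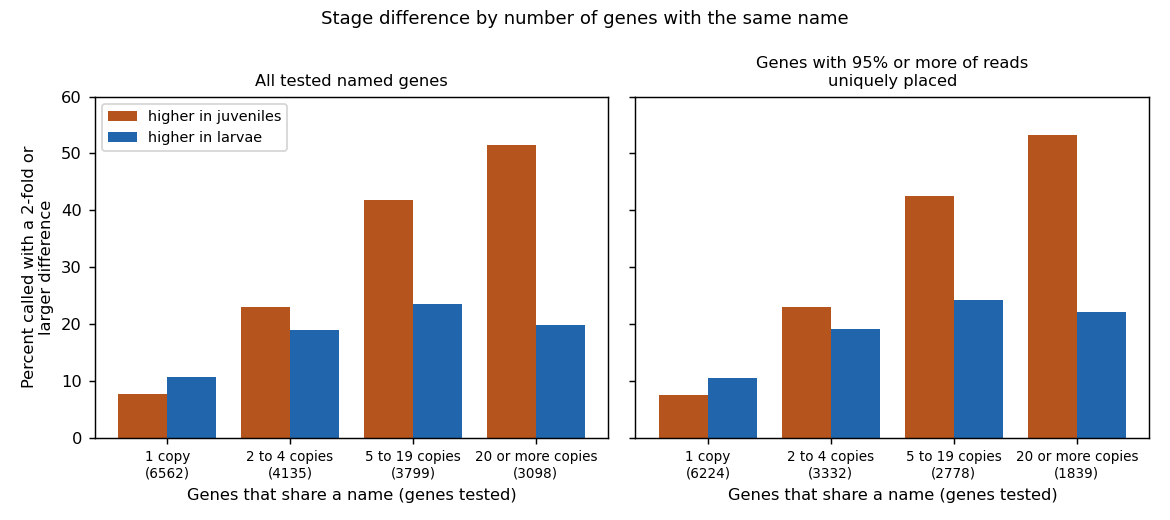
Bars give the percent of tested genes called at least 2-fold higher in juveniles or in larvae, by the number of genes in the files that share a name, for all named genes at the left and for those with at least 95% uniquely placed reads at the right. The juvenile bars go from 7.73% for names with 1 gene to 51.5% for names with 20 or more, and the larval bars from 10.6% to 19.8%, in the left panel.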

How the data were processed

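RNA-seq libraries were made from pools of whole animals, 3 libraries a group, and sequenced together in a single lane. The labels name no batch. The authors mapped reads to the version 2.0 genome in CLC Genomics Workbench and deposited, for each library, gene tables with total, unique, exon and intron read counts per gene. The same deposited tables hold RPKM values, which the authors' software computed from exon reads. They were used here for levels of different genes and for summed levels of gene lists in each stage, without a test. RPKM values are not TMM-scaled, and over all genes they summed to 344124 in larvae and 378607 in juveniles. Small differences between summed levels can therefore depend on the scale. Gene names are those of the files, and some named genes are not reported here.

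Total gene read counts were tested in R 4.3.3 with edgeR 4.0.16 (filterByExpr, TMM scaling, quasi-likelihood test, two-sided, Benjamini-Hochberg adjustment) in 1 fit over all 12 libraries with a mean for each group, and the contrast was control juveniles minus control larvae. An exact permutation test of 3 against 3 libraries cannot go below p = 0.10 and was not used. The scripts were tested on simulated data. Alternatives used limma 3.58.1, DESeq2 1.42.0, other scalings, filters, read classes, thresholds, a replicate block and leaving out each library. A normalized count is a count divided by the effective library size and multiplied by 13802060. Folds against 0 reads use a floor of 3 reads over the group.

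Genes named in the text are those with the largest differences (mean of 200 or more in the higher stage, at least 80% uniquely placed reads), the most abundant ones, and the leading members of 35 gene lists built from gene names, together with the whole Hox and gill lists. A few further members of those lists, the gene families and the name counts were chosen after their values were seen. Members and lists were chosen with earlier results of these data known, so no list test was run. Totals of the 6 deposited control libraries ranged from 7675726 to 20313949 reads, and the largest of all 12 was 26974509 reads. Precision is limited for genes with few reads.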

Additional observations from a re-analysis of the deposited data

Results flagged for a closer look

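For 9 genes described above, the difference between juveniles and larvae itself differed between irradiated and control animals (interaction term in edgeR's quasi-likelihood fit, Benjamini-Hochberg adjustment over 20780 genes, 3 libraries in each of the 4 groups). Larvae had received 120 Gy and juveniles 200 Gy, so stage and dose cannot be told apart in this term. Each value is the log2 stage difference in irradiated animals minus that in controls. Over all 20780 genes tested, 722 (3.47%) passed for this term. Whether the genes named in the text passed more often than that was not tested.

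The receptor gene Fgfr2-4 changed sign, at −1.12 in controls and 0.42 in irradiated animals, a difference of 1.544 (adjusted p = 0.0113). Both contrasts passed the test, the irradiated one near the threshold (adjusted p = 0.0453). Its mean normalized count was 3559 in control larvae and 769.5 in irradiated larvae, and 1632 and 1029 in control and irradiated juveniles. The thyroid hormone receptor gene Tha-1 went from −6.54 to −4.47, a difference of 2.072 (adjusted p = 0.0111), and the hemicentin copy Hmcn1-24 from −6.08 to −4.70, a difference of 1.38 (adjusted p = 0.0113). The Wnt antagonist Sfrp5-1 went from −1.34 to −0.24, a difference of 1.099 (adjusted p = 0.0113), and the tektin Tekt3 from −1.02 to −0.056, a difference of 0.9642 (adjusted p = 0.0481). The kinase gene Cdk1-1 went from 1.88 to 0.33, a difference of -1.547 (adjusted p = 0.0183), and the ligand Bmp3 from 2.30 to 1.38, a difference of -0.9179 (adjusted p = 0.0475). The axoneme gene Efhc2-2 went from 2.95 to 3.80, a difference of 0.8489 (adjusted p = 0.018), and the ribosomal protein gene Rl23 from 0.0085 to 0.86, a difference of 0.8543 (adjusted p = 0.0265).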

How the results depend on the processing

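Requiring at least 10 counts in each of the 6 control libraries lowered the calls to 3945 higher in juveniles and 4073 higher in larvae, so larval calls then outnumbered juvenile ones (49.2% of calls on the juvenile side, against 52.4%), and the median log2 fold change of the genes tested was −0.020 in place of 0.026. With 2-fold or more the calls were 2170 and 1938. This filter tests 14443 genes in place of 20780 and by construction removes genes with few or no reads in a stage. A test against a 2-fold difference itself (glmTreat) called 4086 and 2736. Leaving out each library in turn gave 6386 to 6730 and 5657 to 6002 calls, and with 2-fold or more 5120 to 5290 and 3782 to 3863. With other scalings, the log2 fold changes of single genes moved by a median of 0.012 and −0.028.

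A replicate block gave 5825 and 5198 calls, and 4640 and 3502 with 2-fold or more. Same-numbered larva and juvenile libraries did not deviate together (r = −0.0053, −0.083 and −0.038). With 3 libraries a stage, and because a batch could move different genes in each stage, this cannot exclude a shared batch. Single genes whose calls were lost are named beside their values above. Genes with few reads or shared reads are limited by depth and by read placement.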

Other observations

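Some large gene families had more calls in one stage and others did not. Families were taken as names with at least 20 tested genes, and those given here were picked after their values were seen, so the counts are a description. Of all genes tested, 32.8% were called higher in juveniles and 29.8% in larvae. Large families as a class leaned to juveniles: among genes of names with 20 or more genes, 51.5% were at least 2-fold higher in juveniles and 19.8% in larvae. Without a lean, G3st1 gave 22 of 53 higher in juveniles and 23 in larvae, Orct 16 of 42 and 14, and Ttpal 9 of 23 and 9. Rn213, named after a large ubiquitin ligase, gave 22 of 26 higher in juveniles and none in larvae, and Fcnv1, a ficolin-type lectin, 19 of 23 and none. The atypical cadherin family Fat4 gave 21 of 26 higher in juveniles and 1 in larvae, and the adhesion receptor family Agrd1 25 of 28 and 3. Of the tripartite-motif families, Trim2 gave 83 of 110 and 12, Tri56 59 of 85 and 4, and Lin41 43 of 57 and 2.

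A few families had more larval calls. Cubn, named after the endocytic receptor cubilin, gave 17 of 31 higher in larvae and 11 in juveniles, and Ytx2 gave 11 of 29 and 4. Genes with names of transposon proteins differed among themselves. Pol4 gave 23 of 85 higher in juveniles and 21 in larvae, Pol3 10 of 30 in each direction, and Rtbs 29 of 55 and 11.

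Genes without a known match, 3186 of those tested, were at least 2-fold higher in juveniles in 18.8% and in larvae in 25.9%. By chromosome sequence, the share of tested genes with at least a 2-fold difference ran from 35.8% on chr1A_Sc2 to 53.5% on chr14A_Sc2.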
